A study of Mus musculus with 64 samples.

Results

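The genes described here are 10 chains of mouse interleukin receptors, namely Il21r, Il4ra, Il2rg, Il7r, Il15ra, Il13ra1, Il12rb1, Il27ra, Il6ra and Il10ra, taken by name from 55487 genes with read counts. All 10 were among the 14537 genes that passed the filter on low counts. Il21r and Il12rb1 had been named for a response to AhR ligands from these same libraries, so the ligand tests of these genes below are a description of the libraries and no independent evidence.

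The study asked how the aryl hydrocarbon receptor (AhR), a ligand-activated transcription factor, changes the transcriptome of activated macrophages. BMMs (bone marrow-derived macrophages) were grown from bone marrow of Ahr+/+ mice (female C57BL/6JRj) and of Ahr-/- mice (C57BL/6, backcrossed in-house to the former strain) in medium with supernatant of L929 fibroblasts as the source of macrophage colony-stimulating factor, and the mice were 8-12 weeks old. The cells were exposed for 6 h to 1 µM benzo(a)pyrene (BaP), to 10 µM indole-3-carbinol (I3C) or to 0.01% of the solvent DMSO alone, and then activated for 3 h or 20 h with 10000000 heat-killed Salmonella Enteritidis per ml (hk S.E.). Together with unactivated BMMs that had DMSO alone, these gave 16 groups of genotype, time point and treatment with 4 libraries each, 64 in all, and no group had a ligand without hk S.E. Both genotypes were treated alike, and the Ahr-/- mice lack functional AhR in every cell. BMMs are mixtures of cells counted in bulk, so fewer cells that express a gene and less RNA per cell cannot be told apart.

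Interleukin receptors are assembled from chains that each bind a cytokine or carry the signal, and most of the 10 belong to the type I cytokine receptors. Il2rg encodes the common gamma chain, which pairs with the products of Il21r, Il4ra and Il7r to form the receptors for IL-21, IL-4 and IL-7. The receptor for IL-15 holds the common gamma chain with the product of Il2rb, while that of Il15ra binds IL-15. The product of Il4ra also pairs with that of Il13ra1 to form a receptor for IL-13. IL-12Rβ1, encoded by Il12rb1, is shared by the receptors for IL-12 and IL-23, while Il27ra and Il6ra encode the ligand-binding chains for IL-27 and IL-6, which signal with gp130 (Il6st). Il10ra encodes the ligand-binding chain for IL-10, a cytokine that restrains macrophage activation, and is a class II cytokine receptor. All of these receptors signal through Janus kinases (JAK) and STAT transcription factors bound to the inner part of their chains.

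The 10 genes lie on chromosomes 2, 3, 7, 8, 9, 15 and X (GRCm38), and none of them on chromosome 12, which holds Ahr. Il4ra (ENSMUSG00000030748.9, chr7:125552120-125579474) and Il21r (ENSMUSG00000030745.9, chr7:125603429-125633570) are neighbours on the + strand of chromosome 7, with 23954 bases between the end of Il4ra and the start of Il21r. Il12rb1 (ENSMUSG00000000791.9, chr8:70808449-70821424) and Il27ra (ENSMUSG00000005465.9, chr8:84030294-84042589) are both on chromosome 8 but far apart. Il15ra (ENSMUSG00000023206.16) is at chr2:11705290-11734317, Il6ra (ENSMUSG00000027947.11) at chr3:89864059-89913196, Il10ra (ENSMUSG00000032089.16) at chr9:45253837-45269149 and Il7r (ENSMUSG00000003882.5) at chr15:9505788-9530176. Il13ra1 (ENSMUSG00000017057.9, chrX:36112110-36171259) and Il2rg (ENSMUSG00000031304.18, chrX:101264378-101268255) are on the X chromosome. All are protein-coding, and counts were taken over their exons. For Il2rg, 30.5% of the exon bases also belong to Gm20489 on the same strand, where a read fits both genes and is not counted, so its level is a lower estimate.

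Promoter sequences, from 250 bases before to 50 bases after a RefSeq transcription start (GRCm38.p6), were held for 7 of the 10 genes, with Il12rb1, Il10ra and Il27ra unmatched. They were searched on both strands for the AHRE core GCGTG, to which ligand-bound AhR can bind, for the GAS motif TTCNNNGAA of STAT factors and for the ISRE core of interferon-stimulated genes. These 3 motifs do not overlap one another in the 7 promoters. The sequences of the neighbours Il21r (chr7:125603179-125603478, + strand) and Il4ra (chr7:125552021-125552320, + strand) are shown because the responses of these genes to BaP are set beside each other below, and that of Il7r (chr15:9529827-9530126, - strand) because it holds the single GAS match. Capitals mark a match to one of the motifs.
Il21r: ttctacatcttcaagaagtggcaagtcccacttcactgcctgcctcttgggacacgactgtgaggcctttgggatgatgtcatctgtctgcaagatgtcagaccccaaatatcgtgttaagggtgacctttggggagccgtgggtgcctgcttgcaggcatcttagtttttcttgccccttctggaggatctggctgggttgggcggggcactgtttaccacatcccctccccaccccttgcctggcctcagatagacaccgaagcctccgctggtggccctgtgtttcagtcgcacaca
Il4ra: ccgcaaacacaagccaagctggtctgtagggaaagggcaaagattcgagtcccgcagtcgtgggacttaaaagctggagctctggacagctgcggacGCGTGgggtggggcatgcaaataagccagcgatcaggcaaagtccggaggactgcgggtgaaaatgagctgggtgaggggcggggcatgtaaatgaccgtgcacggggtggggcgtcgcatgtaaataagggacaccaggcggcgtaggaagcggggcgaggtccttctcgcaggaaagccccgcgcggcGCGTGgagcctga
Il7r: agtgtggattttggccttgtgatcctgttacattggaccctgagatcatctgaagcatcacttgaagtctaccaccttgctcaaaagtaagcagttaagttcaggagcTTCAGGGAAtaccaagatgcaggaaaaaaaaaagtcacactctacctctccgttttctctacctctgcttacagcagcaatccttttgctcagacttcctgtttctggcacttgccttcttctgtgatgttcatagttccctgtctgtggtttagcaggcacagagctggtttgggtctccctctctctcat
The AHRE core was found in 3 of the 7 genes, Il4ra at positions -153 and 37 relative to the start, Il2rg at -41 and Il6ra at 15, and 32.4% of all 32851 promoters of this length held it. GAS was found in 1 of 7, Il7r at -142, against 8.30% of all promoters. The ISRE core was found in none of the 7, against 3.44% of all. A match is a run of letters and no measured binding, and a promoter without one, such as that of Il21r in this window, may hold these letters elsewhere.

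Total counts on genes lay between 12152496 and 50644601 per library (median 24499165), apart from 1 library with 233047331, replicate 4 of unactivated Ahr+/+ BMMs at 20 h. Ahr itself was counted in all 64 libraries and was higher in Ahr-/- BMMs, unactivated and with hk S.E. and DMSO, at both times. Its log2 fold changes were 0.88 to 1.04, all called as defined below. After 20 h of hk S.E. with DMSO it had 24.8 ± 2.87 CPM (counts scaled to a common library size, mean ± SD, n = 4) in Ahr-/- against 13 ± 1.29 in Ahr+/+ BMMs. Counts summed over the whole gene do not show whether the product works, so they do not check the genotype. Ahrr, the AhR repressor and an AhR target, had 5.63 ± 0.714, 16 ± 1.18 and 18.7 ± 1.52 CPM with DMSO, I3C and BaP in Ahr+/+ BMMs at 20 h, against 0.738 ± 0.0822, 0.671 ± 0.199 and 0.911 ± 0.241 in Ahr-/- BMMs. The macrophage genes Lyz2, Adgre1, Cd68 and Csf1r were counted in all 64 libraries, with a median of 1563 CPM or more, while Cd3e (T cells), Ncr1 (NK cells) and Fcer1a (mast cells) did not exceed 0.127 CPM in any library. Other genes listed for such cells reached more, Lck 8.40 and Cd5 1.73 CPM (T cells), Klrk1 12.8 (NK cells) and Cd79b 5.96 (B cells). S100a9 (neutrophils) reached 111 and Itgax (dendritic cells) 40.6 CPM. Of the macrophage list, Mrc1 had a median of 21.2 and a minimum of 0.0708 CPM, and Mertk 23.2 and 5.23. In the Ahr-/- BMMs with hk S.E., replicates 1 and 2 lay apart from replicates 3 and 4 in several of the genes below, in all 6 groups for Il7r (lower), Il4ra and Il2rg (both higher) and in 5 of 6 for Il13ra1 (lower). Il21r and Il10ra were split this way in all 6 groups too, below in 3 and above in 3, and Il15ra in 5 of 6 (3 below and 2 above). In Ahr+/+ BMMs replicates 1 and 2 lay above replicates 3 and 4 in 5 of 6 groups for Il13ra1 and in 4 of 6 for Il7r, and Il21r was split in 1 of 6. Over all genes with enough counts, the difference of 2 libraries was set against sampling noise (chi-square per degree of freedom). In Ahr-/- BMMs with hk S.E. and DMSO at 20 h it was 15.6 for replicates 1 and 2. It was 20.2 for replicates 3 and 4, and 120 to 147 across these pairs. The other Ahr-/- groups were split in this way too, apart from unactivated BMMs at 3 h. The main tests below treat the 4 libraries of a group as independent. In all comparisons a gene was called (a DEG) at an adjusted p below 0.01 in edgeR's quasi-likelihood test, fitted on all genes and libraries, and errors of log2 fold changes are standard errors of that fit.

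Levels of the 10 genes spanned a wide range. In RPKM, the CPM divided by exon length in kilobases, which allows genes to be compared, unactivated Ahr+/+ BMMs at 3 h had the highest levels for Il2rg (52.1 ± 3.43), Il10ra (42.6 ± 2.42) and Il7r (41.6 ± 7.16), followed by Il4ra (15.4 ± 2.79), Il6ra (8.75 ± 0.538), Il21r (5.03 ± 0.879) and Il13ra1 (3.34 ± 0.626). Il15ra had 0.689 ± 0.0821 RPKM, and Il12rb1 (0.101 ± 0.0154) and Il27ra (0.0611 ± 0.0352) were close to the limit of detection. After 3 h of hk S.E. with DMSO, Il10ra (141 ± 8.3) and Il2rg (118 ± 1.67) led and Il15ra had risen to 35 ± 3.97 RPKM, the third highest of the 10. After 20 h, Il2rg was highest (112 ± 4.92), and Il21r, with 19.2 ± 0.862 RPKM, was close to Il7r (20.1 ± 8.43) and Il4ra (19.1 ± 1.7). Across the 16 groups the highest mean CPM was 53.8 times the lowest for Il15ra, 29.2 times for Il12rb1, 17.2 times for Il27ra and 16.9 times for Il21r, and 1.86 times for Il4ra, the gene with the smallest range.

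**Figure D1:**
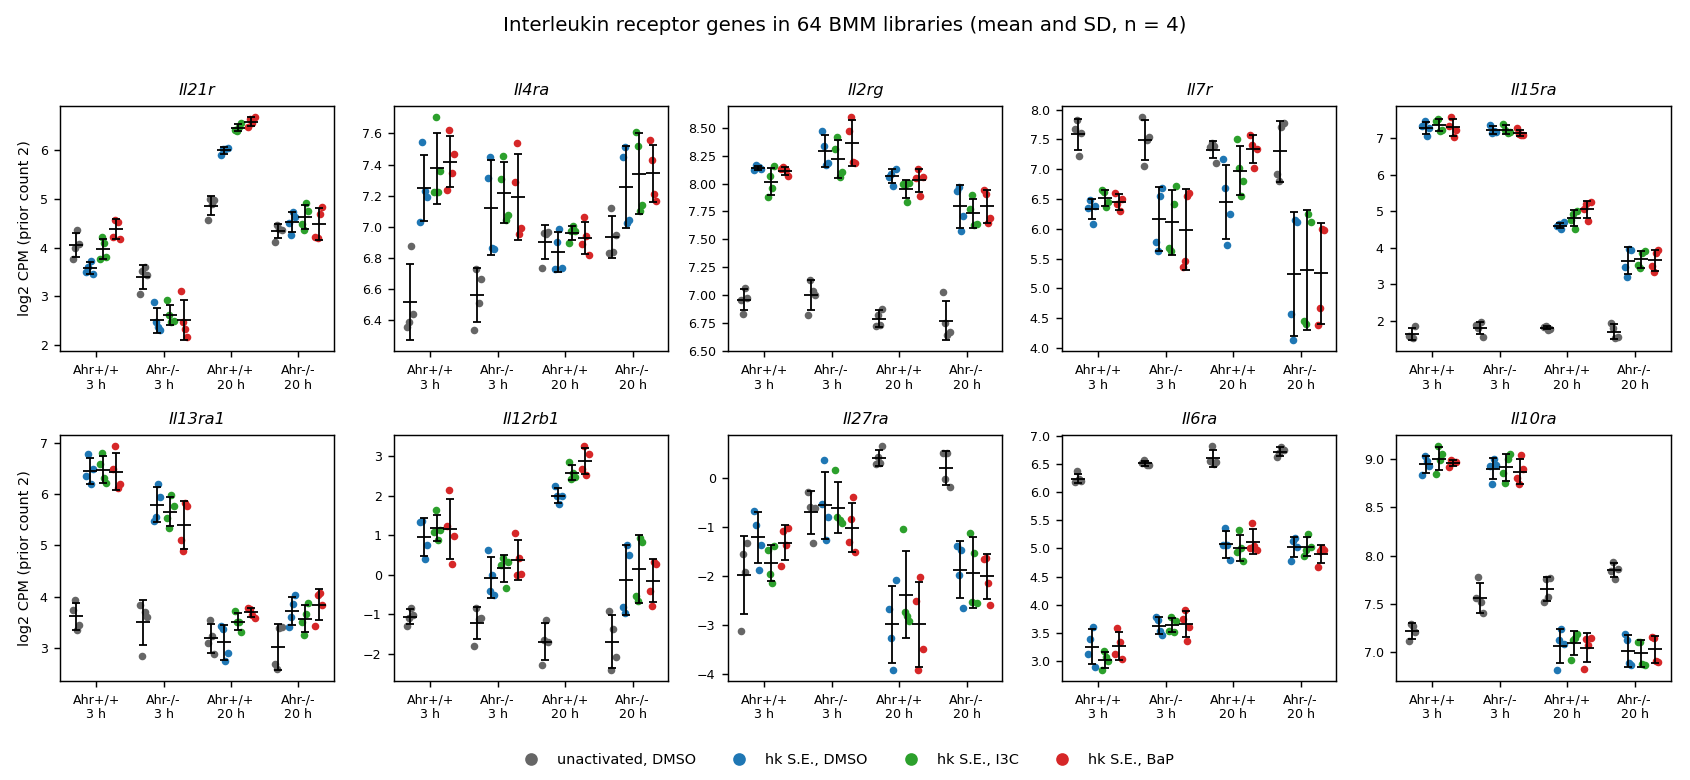
Log2 CPM (prior count 2) of the 10 receptor genes, with 1 point per library, 4 libraries in each of 16 groups, and bars for mean and SD. The vertical axis has its own range in each panel, and Il15ra lies higher and Il6ra lower in hk S.E.-activated (coloured) than in unactivated (grey) BMMs in all 4 blocks.

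Activation with hk S.E. changed most of the receptor genes. Some kept their direction at both time points, and others reversed it or were called at a single time point only. At 3 h in Ahr+/+ BMMs, Il15ra, Il13ra1, Il12rb1, Il10ra, Il2rg and Il4ra rose and Il6ra, Il7r and Il21r fell, so that 9 of 10 were called, where 56.6% of all genes tested were called (24.2% higher and 32.3% lower). In Ahr-/- BMMs the same 6 rose and the same 3 fell, against 57.3% of all genes (25.5% higher and 31.8% lower). At 20 h in Ahr+/+ BMMs, Il12rb1, Il15ra, Il2rg and Il21r were higher and Il27ra, Il6ra and Il10ra lower than in unactivated BMMs (7 of 10, with 58.6% of all genes called, 29.9% higher and 28.7% lower), and in Ahr-/- BMMs Il15ra, Il12rb1, Il2rg and Il13ra1 were higher and Il27ra, Il7r, Il6ra and Il10ra lower (8 of 10, with 54.3%, 28.3% higher and 26% lower). The median log2 fold change of the 10 genes was 0.99, -0.06, 0.93 and 0.27 in these 4 comparisons, and that of all genes tested -0.10, -0.000729, -0.08 and 0.02. Among the markers of other cells, the summed level of the NK list in Ahr+/+ BMMs was 0 to 0.190 CPM unactivated and 8.58 to 12.8 CPM activated at 3 h, and that of the T cell list 0.838 to 1.51 and 3.95 to 8.48 CPM, while the defining markers Ncr1 and Cd3e did not exceed 0.0713 and 0.127 CPM in any library. In the neutrophil list the sum was 12.5 to 28.6 and 81.8 to 182 CPM, and Camp (3.28), S100a8 (2.52) and S100a9 (2.79) had called log2 fold changes, with Ly6g, Elane and Mpo at 0.482 CPM or below in every library. The dendritic cell gene Flt3 rose at 3 h (3.09), and at 20 h Flt3 (2.44) and Zbtb46 (1.53) were higher and Itgax (-2.86) lower, while the B cell gene Cd79b fell at both times (-1.38 and -2.91). The part of these cells in the results was not tested.

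Among the chains of receptors that hold the common gamma chain, Il15ra, which presents IL-15 to neighbouring cells, had the largest response. Its CPM was 2.92, 2.91, 2.81 and 3.6 in the unactivated Ahr+/+ libraries at 3 h (replicates 1 to 4) and 162, 175, 133 and 153 with hk S.E. and DMSO, a log2 fold change of 5.67 ± 0.16 (adjusted p = 1.9e-35). At 20 h it was 24.2, 24.8, 22.6 and 25.8, against 3.52, 3.55, 3.34 and 3.38 unactivated (2.82 ± 0.15, adjusted p = 3.7e-24). The activated libraries lay far above the unactivated ones at both times, and the response at 20 h was smaller than at 3 h, with a difference of -2.85 ± 0.21 on the log2 scale (adjusted p = 1.2e-17). In Ahr-/- BMMs the log2 fold changes were 5.42 ± 0.16 at 3 h and 2.00 ± 0.15 at 20 h.

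Il2rg, the common gamma chain itself, rose about equally at both times, from 124, 114, 134 and 126 to 278, 287, 284 and 279 CPM at 3 h and from 105, 113, 106 and 117 to 267, 271, 253 and 281 at 20 h in Ahr+/+ BMMs. Its log2 fold changes were 1.18 ± 0.09 and 1.28 ± 0.09, and they differed by 0.10 with an interval of -0.17 to 0.36. Il13ra1 rose at 3 h in Ahr+/+ BMMs from 13.3, 15.2, 10.2 and 10.9 to 81.7, 110.5, 73.2 and 90.3 CPM (2.84 ± 0.23, adjusted p = 1.5e-16). It was back at 10.7, 10.3, 6.6 and 7.43 at 20 h, overlapping the unactivated libraries with 8.48, 11.6, 9.34 and 7.26. Il4ra, its partner in the IL-13 receptor, had a small rise at 3 h in Ahr+/+ BMMs (0.73 ± 0.14, adjusted p = 9.4e-06), from 81.7, 83.8, 117 and 86.8 to 131, 186, 150.0 and 146 CPM. Its log2 fold change at 20 h was -0.06 ± 0.14 (adjusted p = 0.71). Il7r, the IL-7 receptor chain, fell at 3 h in both genotypes, in Ahr+/+ BMMs from 205, 228, 148 and 195 to 81.8, 89.6, 67.8 and 83.9 CPM (-1.27 ± 0.37, adjusted p = 0.0026). At 20 h its log2 fold change in Ahr+/+ BMMs was -0.79 ± 0.37 (adjusted p = 0.055, and 0.00011 with the replicate number as a block), and in Ahr-/- BMMs it fell from 121, 112, 210.4 and 218 to 23.6, 17.5, 71.1 and 68.9 CPM (-1.87 ± 0.38, adjusted p = 2.3e-05).

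Il21r changed direction with time. In Ahr+/+ BMMs at 3 h its CPM was 13.6, 15.9, 20.6 and 16.7 unactivated and 11.2, 12.2, 13.2 and 10.9 with hk S.E. and DMSO, with no overlap (-0.49 ± 0.15, adjusted p = 0.0045). At 20 h it was 23.8, 31.8, 29.6 and 31.5 unactivated and 59.5, 65.1, 64.5 and 65.7 activated, the opposite order (1.13 ± 0.14, adjusted p = 9.6e-10). The difference between these responses was 1.62 ± 0.21 (adjusted p = 2.6e-09) in Ahr+/+ and 1.11 ± 0.22 (adjusted p = 2e-05) in Ahr-/- BMMs, and 47.8% and 44.7% of all genes were called for a change of the response with time. The fall at 3 h in Ahr+/+ BMMs was the least firm of these values, and it was called in 3 of 8 fits that left out 1 library each (adjusted p = 0.040 without replicate 4 of the activated libraries) and not with DESeq2 (adjusted p = 0.0101). Unactivated BMMs also had more Il21r at 20 h than at 3 h, by 0.81 ± 0.15 in Ahr+/+ and 0.92 ± 0.15 in Ahr-/- BMMs (adjusted p = 8.3e-05 and 8.9e-06, with 6.07% and 6.98% of all genes called). In Ahr+/+ BMMs 2 further genes rose from 3 h to 20 h without activation, Il27ra by 2.52 ± 0.46 and Il10ra by 0.43 ± 0.09 (adjusted p = 8.3e-05 and 0.00063). Between BMMs with hk S.E. and DMSO at 20 h and at 3 h, 8 of 10 genes differed in Ahr+/+ BMMs (59.5% of all genes) and 7 of 10 in Ahr-/- BMMs (56%), and Il21r was higher at 20 h by 2.42 ± 0.16 and 2.03 ± 0.16. In Ahr-/- BMMs the activated libraries at 3 h and at 20 h carried library identifiers of different series, as did most unactivated ones. The change with time in Ahr-/- BMMs therefore cannot be told apart from what these identifiers stand for.

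Of the receptors for the IL-12, IL-27 and IL-6 group of cytokines, Il12rb1 rose and Il6ra fell at both times. Il12rb1 had 4 to 71 counts per library in unactivated Ahr+/+ BMMs at 20 h, which is 0.14, 0.251, 0.39 and 0.239 CPM, and 4.67, 3.92, 3.39 and 3.94 CPM with hk S.E. and DMSO (3.97 ± 0.38, adjusted p = 1.4e-13). At 3 h it went from 0.341, 0.401, 0.493 and 0.427 to 2.46, 2.49, 1.25 and 1.62 (2.23 ± 0.41, adjusted p = 4.4e-06). All activated Ahr+/+ libraries lay above all unactivated ones. In Ahr-/- BMMs the log2 fold changes were 1.30 ± 0.44 at 3 h, called in 3 of 8 fits that left out 1 library (adjusted p of up to 0.048), and 1.82 ± 0.41 at 20 h, where the libraries overlapped. Il6ra, the binding chain for IL-6, had 72.2, 82.4, 74.7 and 73.2 CPM unactivated and 8.72, 10.5, 12.1 and 7.37 activated at 3 h (-2.97 ± 0.14, adjusted p = 1.9e-26), and recovered in part to 33.2, 41.2, 33.3 and 27.8 at 20 h, still below the unactivated libraries (-1.52 ± 0.12, adjusted p = 3.6e-16).

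Il27ra was the least expressed of the 10 in most groups, by RPKM. Unactivated Ahr+/+ libraries had 33, 41, 33 and 446 counts at 20 h and those with hk S.E. and DMSO 2, 1, 0 and 8, which is 1.28 ± 0.162 against 0.0744 ± 0.0739 CPM (-3.89 ± 0.51, adjusted p = 2.1e-09). At 3 h its groups overlapped and the log2 fold change of 0.80 ± 0.56 was not called (adjusted p = 0.22). With so few counts, the size of these changes is less certain than for the other genes.

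Il10ra, in contrast, was among the most expressed and turned from a rise to a fall. Its CPM in Ahr+/+ BMMs was 138, 157, 154 and 148 unactivated and 458, 527, 506 and 489 activated at 3 h (1.73 ± 0.09, adjusted p = 2.4e-23). At 20 h the order was reversed, with 183, 216, 189.8 and 217 unactivated and 112, 139, 151 and 135 activated (-0.59 ± 0.09, adjusted p = 1.4e-07). The responses at the 2 time points differed by -2.32 ± 0.13 in Ahr+/+ and -2.17 ± 0.13 in Ahr-/- BMMs (adjusted p = 5.9e-22 and 9.1e-21).

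**Figure D2:**
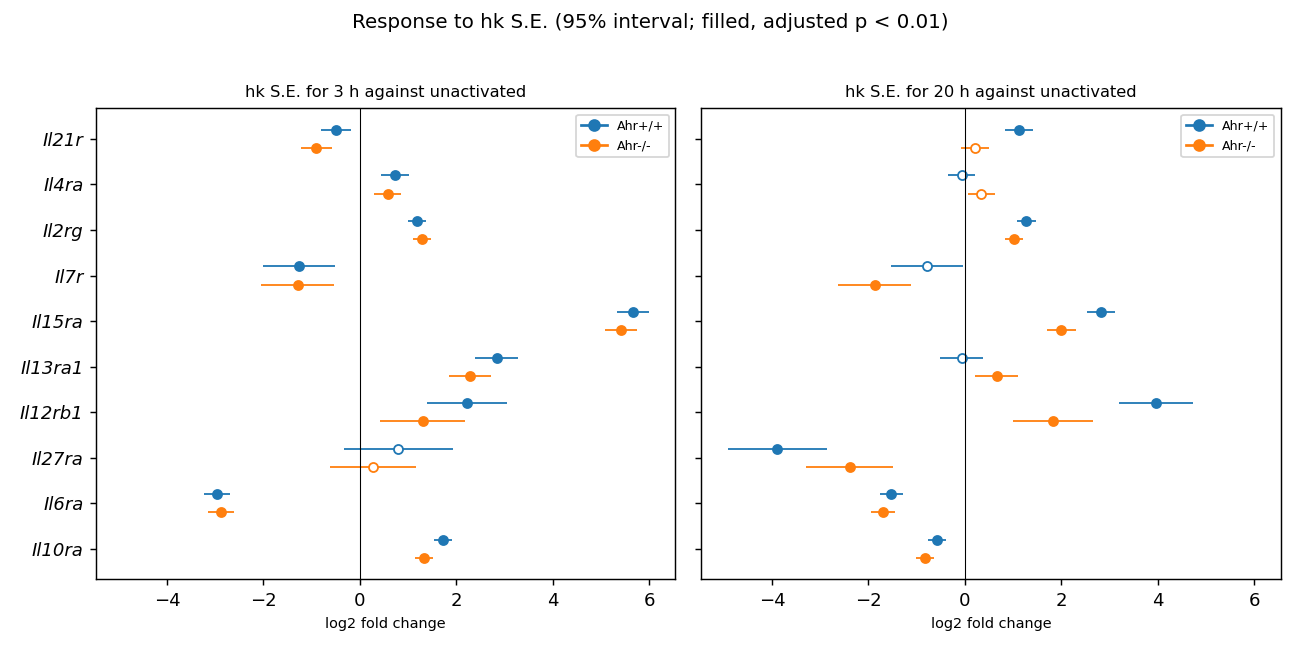
Log2 fold change of the 10 genes with hk S.E. and DMSO against unactivated BMMs at 3 h (left) and 20 h (right), with 95% intervals, in Ahr+/+ (blue) and Ahr-/- (orange) BMMs, filled where the adjusted p was below 0.01. Il21r and Il10ra lie on opposite sides of 0 at the 2 time points in Ahr+/+ BMMs, and Il15ra is the highest gene at 3 h.

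Other chains of the same receptors were counted along with these genes. Of 9 partner chains, Il2rb, Il13ra2 and Il9r did not pass the filter on low counts. In Ahr+/+ BMMs at 3 h, 2 of the other 6 rose and 1 fell, and at 20 h 3 rose and 2 fell. Of all genes tested, 24.2% rose and 32.3% fell at 3 h, and 29.9% rose and 28.7% fell at 20 h. Il6st, the signal chain for IL-6 and IL-27, fell together with Il6ra, with 148 ± 7.47 CPM unactivated and 30 ± 2.83 activated at 3 h (log2 fold change -2.30, adjusted p = 5.7e-29). Il12rb2, the partner of Il12rb1 in the IL-12 receptor, was at 5.83 ± 1.25 CPM unactivated and 0.282 ± 0.0744 activated at 20 h (-4.32, adjusted p = 6.3e-17). Il23r, its partner in the IL-23 receptor, was at 0 in all unactivated libraries at 20 h and at 3.15 ± 0.859 CPM after activation. Il10rb, the partner of Il10ra, had log2 fold changes of 0.03 (adjusted p = 0.73) and -0.09 (adjusted p = 0.18) in Ahr+/+ BMMs.

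Of 15 cytokines that bind these receptors, 9 passed the filter, and Il21 and Il9 had no count in any of the 64 libraries. All 9 rose at 3 h in both genotypes and 8 of 9 were higher at 20 h. Il15 itself went from 7.3 ± 1.5 to 396 ± 35.9 CPM at 3 h in Ahr+/+ BMMs and was at 13.4 ± 3.55 at 20 h, and Il27 from 0.421 ± 0.0741 to 525 ± 45.8 and 38.4 ± 7.17. Of 11 JAK and STAT genes, 9 rose and 1 (Stat6) fell at 3 h in Ahr+/+ BMMs, and 5 rose at 20 h, with Jak2 highest by fold at both times (log2 fold change 4.46 and 4.54). Among 24 chains of other interleukin receptors, 14 passed the filter, of which 7 rose and 1 fell at 3 h and 10 rose and 3 fell at 20 h in Ahr+/+ BMMs. For comparison with these lists, 24.2% of all genes tested rose and 32.3% fell at 3 h in Ahr+/+ BMMs. At 20 h 29.9% rose and 28.7% fell. In Ahr-/- BMMs 25.5% of all genes rose at 3 h and 28.3% at 20 h.

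Ahr-/- BMMs had less Il21r than Ahr+/+ BMMs, and after 20 h of hk S.E. also less Il12rb1 and Il15ra. These comparisons use the same libraries as those above. Of the 10 genes, 1 was called in unactivated BMMs at 3 h (all genes 1.21%), 1 with hk S.E. and DMSO at 3 h (2.83%), 0 in unactivated BMMs at 20 h (0.702%, with 2 of the 10 at an unadjusted p below 0.05, and 0 also with DESeq2) and 3 with hk S.E. and DMSO at 20 h (12.5%), all lower in Ahr-/- BMMs. In the 3 comparisons with a call, 0.97%, 1.61% and 7.39% of all genes were called as lower. Markers of other cells differed as well with hk S.E. and DMSO at 20 h, with log2 fold changes of -2.56 for Zbtb46 and -2.92 for Flt3 (dendritic cells), -2.09 for Klrk1 (NK cells) and 0.94 for Cd79b (B cells), all called and without overlap. Itgax of the dendritic cell list went the other way (0.73, adjusted p = 0.094), with overlap, and was not called. Zbtb46 and Flt3 did not exceed 1.23 and 1.20 CPM in any library, and the summed level of the dendritic cell list was 3.96 to 8.20 CPM in Ahr+/+ and 4.67 to 11.3 CPM in Ahr-/- libraries. That of the NK list was 0.817 to 1.32 and 0.150 to 0.478 CPM, and the part of these cells was not tested. The replicates of a genotype share no mouse with the other, so no fit with the mouse as a block was possible here.

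Il21r was lower in all Ahr-/- than in all Ahr+/+ libraries in each of the 4 comparisons. In unactivated BMMs at 3 h its CPM was 13.6, 15.9, 20.6 and 16.7 in Ahr+/+ and 8.17, 11.4, 12.1 and 10.8 in Ahr-/- libraries, which did not overlap (-0.65 ± 0.15, adjusted p = 0.0071). After 3 h of hk S.E. with DMSO it was 11.2, 12.2, 13.2 and 10.9 against 7.29, 5.49, 5.07 and 4.92 (-1.07 ± 0.17, adjusted p = 3.1e-05). After 20 h it was 59.5, 65.1, 64.5 and 65.7 against 22.5, 19, 26.4 and 24.7 (-1.46 ± 0.15, adjusted p = 6.9e-11). In unactivated BMMs at 20 h the log2 fold change of -0.53 ± 0.14 was not called (adjusted p = 0.037), although the libraries did not overlap. The call in unactivated BMMs at 3 h was kept in 1 of 8 fits that left out 1 library, with an adjusted p of up to 0.050 without replicate 3 of the unactivated Ahr+/+ libraries, while both calls with hk S.E. were kept in 8 of 8. Il4ra, the neighbour of Il21r, had log2 fold changes of 0.04 (adjusted p = 1), -0.11 (adjusted p = 0.74), 0.03 (adjusted p = 0.97) and 0.43 (adjusted p = 0.021) in the same comparisons, none of them called.

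Il12rb1 and Il15ra differed between the genotypes in activated BMMs at 20 h. Il12rb1 was at 4.67, 3.92, 3.39 and 3.94 CPM in Ahr+/+ and 0.507, 0.45, 1.62 and 1.34 in Ahr-/- libraries (-1.99 ± 0.33, adjusted p = 9.3e-06), where Ahr-/- replicates 3 and 4 had more than replicates 1 and 2. Il15ra was at 24.2, 24.8, 22.6 and 25.8 against 11.1, 9.15, 15.5 and 15.2 (-0.93 ± 0.13, adjusted p = 5.8e-07). Neither overlapped between the genotypes. All 16 Ahr-/- libraries at 20 h carried library identifiers of 1 series and 14 of the 16 Ahr+/+ libraries those of another. The exceptions were unactivated. With hk S.E. at 20 h the genotype therefore cannot be told apart from what these identifiers stand for. With the identifier series as a covariate the adjusted p was 4.3e-05 for Il21r, 0.00035 for Il15ra and 0.1 for Il12rb1, which was then no longer called. That fit takes the effect of the series from other groups, so it cannot separate series and genotype in this comparison.

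The other genes had no called difference between the genotypes. Il7r with hk S.E. and DMSO at 20 h was at 144, 103, 52.7 and 75.6 CPM in Ahr+/+ and 23.6, 17.5, 71.1 and 68.9 in Ahr-/- libraries (-1.05 ± 0.37, adjusted p = 0.037), and these libraries overlapped. Il2rg, Il13ra1 and Il4ra had log2 fold changes of -0.26 (adjusted p = 0.036), 0.62 (adjusted p = 0.036) and 0.43 (adjusted p = 0.021) there. Il10ra was at 138, 157, 154 and 148 CPM in unactivated Ahr+/+ and 189, 219, 182 and 169 in unactivated Ahr-/- libraries at 3 h, with no overlap (0.35 ± 0.09, adjusted p = 0.023).

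**Figure D3:**
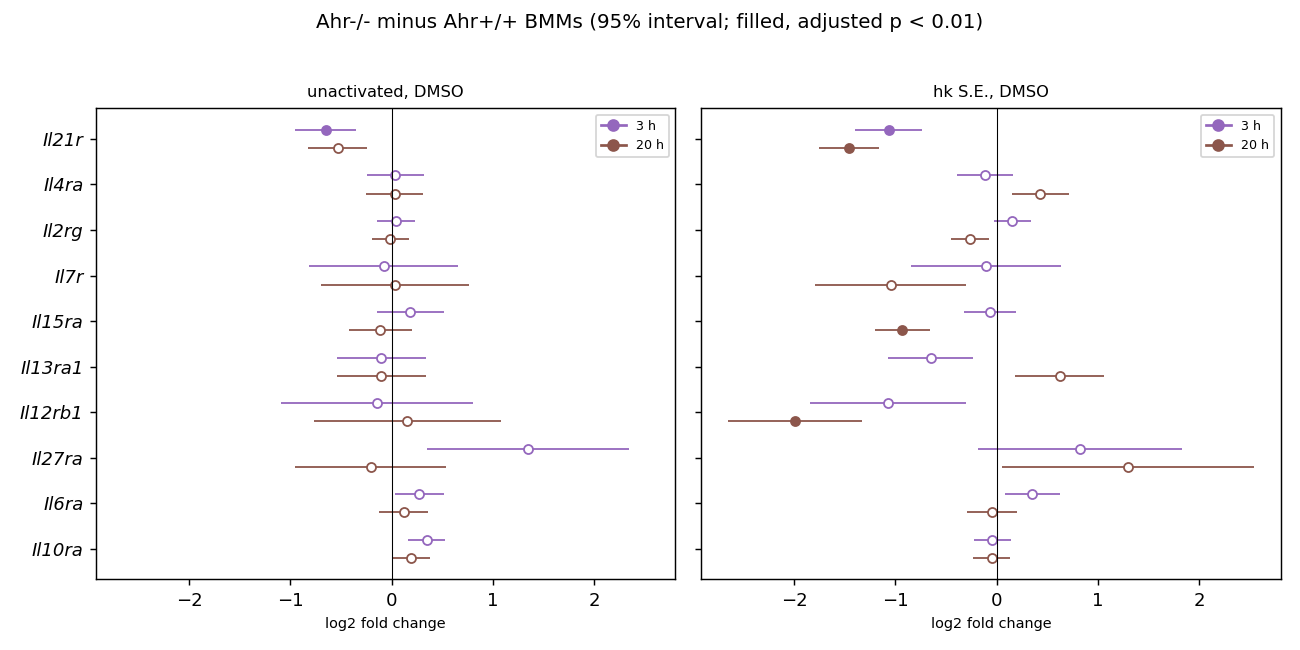
Log2 fold change of the 10 genes in Ahr-/- against Ahr+/+ BMMs, unactivated (left) and with hk S.E. and DMSO (right), at 3 h (purple) and 20 h (brown), with 95% intervals, filled where the adjusted p was below 0.01. Il21r lies below 0 in all 4 comparisons, and Il12rb1 and Il15ra are filled only with hk S.E. at 20 h.

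The response to hk S.E. itself was compared between the genotypes. At 20 h it was smaller in Ahr-/- BMMs for Il21r, with a difference of -0.92 ± 0.20 on the log2 scale (adjusted p = 0.0016), and for Il15ra, with -0.82 ± 0.20 (adjusted p = 0.0052), 2 of 10 genes where 4.41% of all genes were called and 2.33% had a lower value in Ahr-/- BMMs. Fitted on the compared groups only, Il15ra was no longer called (adjusted p = 0.036). In Ahr+/+ BMMs at 20 h some unactivated libraries carried identifiers of other series than the activated ones, while all Ahr-/- libraries at 20 h shared 1 series. At 3 h the series of unactivated and activated libraries differed in part in both genotypes. In the same test the dendritic cell gene Zbtb46 had a difference of -2.91 (adjusted p = 0.0048). Itgax (1.00, adjusted p = 0.15) and Flt3 (0.66, adjusted p = 0.77) of the same list went the other way and were not called. The macrophage gene Cd68 had a difference of -0.67 (adjusted p = 0.0048). The part of such cells was not tested. In Ahr-/- BMMs the activated Il21r libraries at 20 h overlapped the unactivated ones (22.5, 19, 26.4 and 24.7 against 17.4, 22.1, 20.8 and 20.6 CPM). Il12rb1 had the largest difference, -2.15 ± 0.58, just outside the threshold (adjusted p = 0.011), and Il7r differed by -1.08 ± 0.52 and Il13ra1 by 0.72 ± 0.31 (adjusted p = 0.21 and 0.15). With the replicate number as a block within each genotype, taken as the mouse, 5 genes were called, Il21r, Il15ra, Il12rb1 (adjusted p = 0.0039), Il7r (0.0018) and Il13ra1 (0.0051). Il21r was called in 16 of 16 fits that left out 1 library, and Il15ra in 8 of 16, with an adjusted p of up to 0.023 without replicate 2 of the activated Ahr-/- libraries. At 3 h none of the 10 was called (all genes 0.0138%), with 1 at an unadjusted p below 0.05, Il10ra, and none with DESeq2, while Il10ra was called with the block within genotype and time (adjusted p = 0.0092).

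Il21r was higher with BaP than with DMSO in Ahr+/+ BMMs at 3 h, in a call that several alternatives ended. With BaP and 3 h of hk S.E. its CPM was 18.6, 23.7, 23 and 18, against 11.2, 12.2, 13.2 and 10.9 with DMSO, higher in 4 of 4 replicates (0.81 ± 0.16, adjusted p = 0.0077). This was the only called test of 40 for a ligand in Ahr+/+ BMMs, 1 of 10 genes where 0.0482% of all genes were called, and it was kept in 1 of 8 fits that left out 1 library, with an adjusted p of up to 0.12 without replicate 2 of the BaP libraries. The call was also lost with no filter on low counts (adjusted p = 0.0129), with the compared groups only (0.0109) and with library identifiers as a covariate (0.0100), where DMSO replicates 1 and 2 and BaP replicate 1 carried identifiers of 1 series and the other 5 libraries those of another. At 20 h Il21r was at 88.6, 99.7, 93.8 and 103 CPM with BaP and 85.2, 84.4, 88.3 and 94.7 with I3C, all above the DMSO libraries (59.5, 65.1, 64.5 and 65.7). These log2 fold changes of 0.59 ± 0.14 and 0.47 ± 0.14 were not called (adjusted p = 0.027 and 0.13, with 0.234% and 0.509% of all genes called). Both were called when only the compared groups were fitted (adjusted p = 0.0019 and 0.0044). With I3C at 3 h the value was 0.41 ± 0.16 (adjusted p = 0.61, with 0.131% of all genes called), again with all 4 libraries above those with DMSO. Both ligands were compared with the same DMSO libraries, so their values are not independent.

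At 20 h none of the 10 genes was called with BaP in Ahr+/+ BMMs, where 0.234% of all genes were. Some of the 10 had more CPM with BaP than with DMSO in 4 of 4 replicates. Beside Il21r these were Il12rb1 (6.39, 9.45, 5.73 and 8.23 against 4.67, 3.92, 3.39 and 3.94), Il15ra (33.4, 36.4, 26.4 and 37.8 against 24.2, 24.8, 22.6 and 25.8), Il13ra1 (13.7, 13.5, 12.5 and 11.9 against 10.7, 10.3, 6.6 and 7.43) and Il7r (192, 169.8, 129 and 162 against 144, 103, 52.7 and 75.6). The libraries with BaP lay above all DMSO libraries for the first 3, and overlapped for Il7r. Their log2 fold changes were 0.91 ± 0.30, 0.46 ± 0.13, 0.57 ± 0.22 and 0.80 ± 0.37, with adjusted p of 0.17, 0.083, 0.29 and 0.43, and none was called. The share of all genes that were higher in 4 of 4 replicates, or did not overlap, was not counted. More tests were called when libraries with the same replicate number were paired, and that this number is the mouse is an assumption. In Ahr+/+ BMMs, deviations from group means of such libraries correlated at 0.0668 to 0.255. With the replicate number as a block within each genotype, 5 tests were called, Il21r at 3 h (adjusted p = 0.0017) and, at 20 h, Il21r (0.0016), Il7r (0.005), Il15ra (0.0062) and Il13ra1 (0.0073). Il12rb1 reached 0.022 in that fit, and 0.0018 with a block within genotype and time, where Il21r with I3C at 20 h was called as well (adjusted p = 0.0019). I3C gave smaller values with the same sign at 20 h, 0.58 ± 0.30, 0.21 ± 0.13, 0.39 ± 0.22 and 0.47 ± 0.37, each higher in 4 of 4 replicates.

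Il4ra, Il2rg, Il6ra, Il10ra and Il27ra had no called change with either ligand, and of the other genes only Il21r had 1. In Ahr+/+ BMMs the intervals for BaP at 20 h were -0.19 to 0.37 for Il4ra, -0.22 to 0.15 for Il2rg, -0.20 to 0.29 for Il6ra and -0.21 to 0.16 for Il10ra. For Il27ra the interval was wide, -1.53 to 1.34, with 0 to 8 counts in its libraries. Il4ra had log2 fold changes of 0.16 and 0.09 with BaP at 3 h and 20 h, and its neighbour Il21r had 0.81 and 0.59. The part of AHRE motifs in these values was not tested, and no bases beyond the 300 shown were searched.

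In Ahr-/- BMMs none of the 40 tests for a ligand was called, none had an unadjusted p below 0.05, and DESeq2 called none. With BaP, 0.0275% of all genes were called at 3 h and 0.0138% at 20 h, and with I3C 0.0206% and 0.206%. Il21r was at 18.7, 18.3, 25.9 and 28.4 CPM with BaP and 22.2, 20.5, 29.9 and 26.9 with I3C at 20 h, overlapping the DMSO libraries (22.5, 19, 26.4 and 24.7), with intervals of -0.31 to 0.27 and -0.19 to 0.39. Values above DMSO in 4 of 4 replicates also occurred in Ahr-/- BMMs, for Il12rb1 with BaP at 3 h and with I3C at 20 h, for Il21r with I3C at 3 h and for Il4ra with I3C at 20 h. A test of the difference between the genotypes is needed to call the ligand effect specific to Ahr+/+ BMMs. For Il21r and BaP this difference was 0.78 ± 0.23 at 3 h and 0.62 ± 0.20 at 20 h in favour of Ahr+/+ BMMs, and it was not called (adjusted p = 1 and 0.58). Over both ligands and times, 0 of 40 such tests were called, with 4 at an unadjusted p below 0.05, and BaP at 3 h was the only case in which any gene was called (0.0138%). With the block within genotype and time, Il21r with BaP at 20 h reached an adjusted p of 0.0099.

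**Figure D4:**
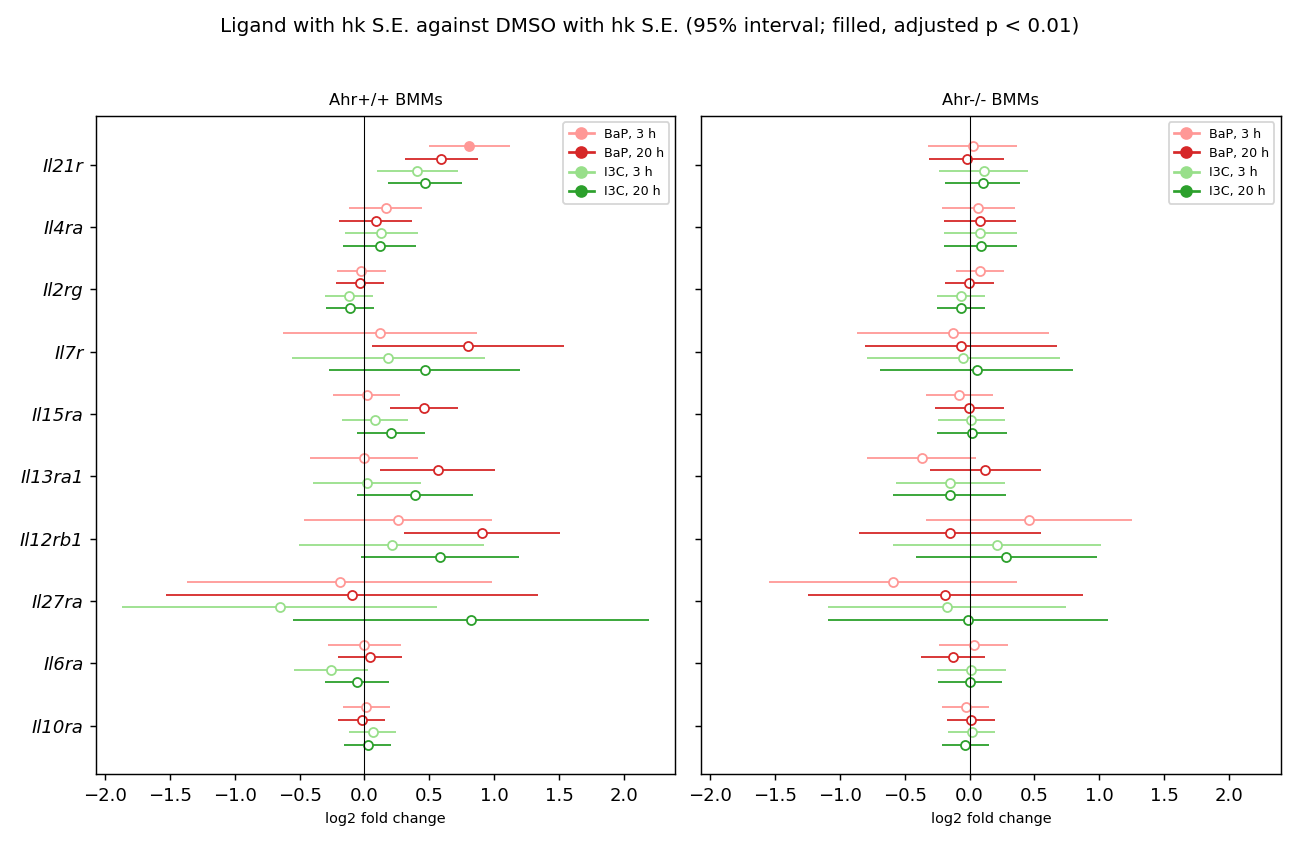
Log2 fold change of the 10 genes with BaP or I3C and hk S.E. against DMSO and hk S.E. at 3 h and 20 h in Ahr+/+ (left) and Ahr-/- (right) BMMs, with 95% intervals, filled where the adjusted p was below 0.01. The single filled point is Il21r with BaP at 3 h in Ahr+/+ BMMs, and the points of Il21r in Ahr-/- BMMs lie between -0.02 and 0.11.

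BaP and I3C were also compared directly. Of 40 tests, none was called, with 1 at an unadjusted p below 0.05 and none called by DESeq2, where 0.11% and 0.282% of all genes were called in Ahr+/+ BMMs at 3 h and 20 h and 0.0206% and 0.186% in Ahr-/- BMMs. The test with the unadjusted p below 0.05 was Il21r at 3 h in Ahr+/+ BMMs, higher with BaP than with I3C by 0.40 ± 0.15 (interval 0.09 to 0.71, adjusted p = 0.71) and in 4 of 4 replicates. At 20 h the interval was -0.16 to 0.41 for Il21r, -0.27 to 0.92 for Il12rb1, -0.01 to 0.52 for Il15ra and -0.40 to 1.07 for Il7r, so that differences of this size between the ligands could not be told apart from 0. The doses differed between the ligands, 1 µM for BaP and 10 µM for I3C. Whether a ligand acted differently at 20 h than at 3 h was tested in Ahr+/+ BMMs, and none of 20 tests of the 10 genes was called (1 at an unadjusted p below 0.05, none by DESeq2), with 0% of all genes called for BaP and 0.0275% for I3C.

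**Figure D5:**
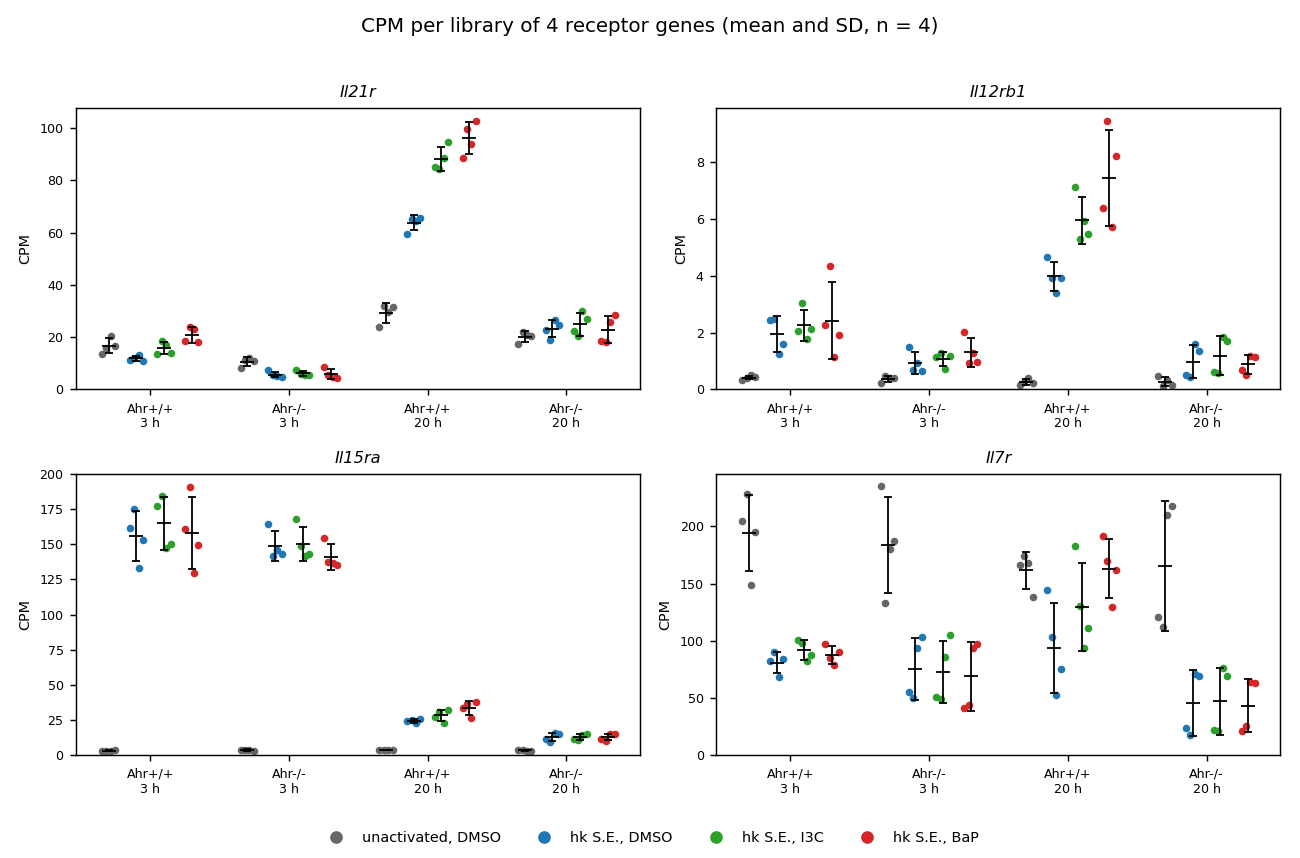
CPM of Il21r, Il12rb1, Il15ra and Il7r in each of 64 libraries, with mean and SD of 4 libraries per group, on axes that start at 0. At 20 h in Ahr+/+ BMMs the 4 Il21r libraries with BaP sit between 88.6 and 103 CPM and the 4 with DMSO between 59.5 and 65.7, while all 12 activated Ahr-/- libraries lie at 29.9 or below.

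Ordered by mean CPM, the Il21r groups ran from 20 h Ahr+/+ BMMs with BaP (96.2 ± 6.25) and I3C (88.1 ± 4.68), which overlapped, to those with DMSO (63.7 ± 2.87) and to unactivated Ahr+/+ BMMs at 20 h (29.2 ± 3.74), with no overlap at the last 2 of these steps. The 8 groups from there down to unactivated Ahr+/+ BMMs at 3 h (16.7 ± 2.92) and Ahr+/+ BMMs with I3C at 3 h (15.8 ± 2.35) each overlapped with the next, and below them Ahr+/+ BMMs with DMSO at 3 h (11.9 ± 1.05) overlapped with unactivated Ahr-/- BMMs at 3 h (10.6 ± 1.72). The 3 Ahr-/- groups with hk S.E. at 3 h were lowest (5.69 ± 1.09 to 6.15 ± 0.928) and overlapped with one another. The 5 genes whose mean log2 CPM over the 16 groups was most like that of Il21r, among 8463 protein-coding genes with a range of at least 1 on the log2 scale, were Abhd10 (Pearson's r = 0.968), Plk4 (0.957), Tent5c (0.947), Adam19 (0.931) and Mettl9 (0.927). For Il12rb1 they were Insl6 (0.986), Treml2 (0.982), Cd86 (0.978), Serpinb2 (0.978) and Scpep1 (0.969), of which Cd86 encodes a costimulatory molecule. The 16 group means share the steps between time points and between unactivated and activated BMMs. Between Il21r and Il12rb1 r was 0.529, and between Il21r and its neighbour Il4ra it was -0.197.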

How the data were processed

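RNA-seq measured 64 BMM libraries in 16 groups of 4, and samples were grouped by their titles. The authors removed adapters, aligned reads with HISAT2 2.1.0 to mm10 and deposited raw counts per gene from HTSeq 0.9.1 (exons, intersection-strict, reverse stranded). Strand-aware counting separates Il4ra, Il6ra and Il27ra from antisense genes, and reads that fit more than 1 gene are left out, which lowers Il2rg. The count tables were read as deposited, and 5 summary entries that name no gene were left out (19.2 to 25.1% of all reads). The authors also deposited variance-stabilised values of all libraries on a log2 scale, which served only as an alternative. Gene names came from GENCODE M21, matched by full identifier for 55094 genes and by base identifier for 300.

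Genes with low counts were removed (filterByExpr, minimum count 10). Counts were tested with edgeR 4.0.16 (TMM, quasi-likelihood, 16 group means, 48 residual degrees of freedom) in R 4.3.3, with Benjamini-Hochberg adjustment over 14537 genes and a threshold of 0.01. Ligand was compared with DMSO, BaP with I3C, hk S.E. with unactivated, Ahr-/- with Ahr+/+ and 20 h with 3 h, and the differences of these by genotype and time. The pipeline was tested on simulated data. The 10 genes, the lists and all tests were chosen with earlier results of these data known. All 10 genes are named, list genes by count with the partner chains, and the 5 genes most like Il21r and Il12rb1. Per the methods, 4 mice of each genotype were used, and the replicate number was taken as the mouse: deviations from group means of libraries with the same number correlated at 0.252 to 0.643 in Ahr-/- and at 0.0668 to 0.255 in Ahr+/+ BMMs (10 of 16 pairs above 0.1). Alternatives were DESeq2 1.42.0, its size factors, no filter, limma 3.58.1 on variance-stabilised values, compared groups only, replicate blocks, library identifiers as a covariate, a threshold of 0.05, RPKM and each library left out in turn (64 fits, in which comparisons without that library kept their calls). Precision is limited by depth for Il27ra and Il12rb1, with under 10 counts in some libraries.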

Additional observations from a re-analysis of the deposited data

Results flagged for a closer look

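In 10 of 160 sets of 4 libraries (1 gene in 1 group), 1 library lay further from the others than Dixon's 95% critical value allows, and chance alone would flag about 8 (1 in 20). These were, in CPM, for Il4ra replicate 3 of unactivated Ahr+/+ BMMs at 3 h (117.4) and replicate 1 at 20 h (106.7), for Il2rg replicate 3 of Ahr+/+ BMMs with I3C at 20 h (228), for Il6ra replicate 2 of unactivated Ahr+/+ BMMs at 20 h (112), replicate 2 of Ahr+/+ BMMs with BaP at 20 h (43.5) and replicate 1 of Ahr-/- BMMs with BaP at 20 h (25.4), for Il15ra replicate 4 of unactivated Ahr+/+ BMMs at 3 h (3.60) and replicate 1 of Ahr-/- BMMs with BaP at 3 h (154.6), and for Il27ra replicate 1 of Ahr-/- BMMs with I3C at 3 h (1.06) and replicate 1 of Ahr+/+ BMMs with I3C at 20 h (0.419).

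The response to hk S.E. differed between groups in 16 tests of the difference itself. Between the genotypes at 20 h, the response in Ahr-/- minus that in Ahr+/+ BMMs was -0.92 for Il21r and -0.82 for Il15ra on the log2 scale. Between the time points, the response at 20 h minus that at 3 h in Ahr+/+ BMMs was 1.62 for Il21r, 1.74 for Il12rb1, 1.44 for Il6ra, -0.79 for Il4ra, -2.32 for Il10ra, -2.85 for Il15ra, -2.90 for Il13ra1 and -4.69 for Il27ra. In Ahr-/- BMMs it was 1.11 for Il21r, 1.20 for Il6ra, -1.63 for Il13ra1, -2.17 for Il10ra, -2.66 for Il27ra and -3.42 for Il15ra.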

How the results depend on the processing

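No result changed its direction past the threshold under any alternative that was run. Of the 40 tests for a ligand in Ahr+/+ BMMs, 1 was called, against 2 with DESeq2, 2 with the compared groups only, 2 at a threshold of 0.05, 0 with no filter on low counts and 0 with library identifiers as a covariate. For the response to hk S.E. by genotype 2 of 20 tests were called, and 1 with the compared groups only. With the replicate number as a block, these counts were 5 for ligands and 5 for the response by genotype, and with a block within genotype and time 7 and 6, and 1 in place of 0 for the ligand effect by genotype. The block could not be fitted between the genotypes, since no mouse is in both. There, 5 of 40 tests were called, and 12 at a threshold of 0.05. Leaving out 1 library at a time gave 31 to 33 calls for activation (33 with all libraries), 1 to 3 for activation by genotype, 13 to 14 for activation by time (14), 0 to 1 for ligands in Ahr+/+ BMMs, 4 to 5 between the genotypes and 17 to 20 between the time points (19). The group with the highest level was the same for 10 of 10 genes on variance-stabilised values, and the order of the genes within groups kept 102 of 160 places between CPM and RPKM. Depth limits Il27ra and Il12rb1, with under 10 counts in some libraries.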
